A study of Homo sapiens with 4 samples.

Results

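The germ layer differentiation markers examined here were 30 protein-coding genes of 60564 gene identifiers in the count tables: 11 markers of endoderm, 10 of mesoderm and 9 of neural ectoderm. They were taken by name from a list of lineage genes, and all 30 were found. RNA-seq had been performed on Elf1 cells, a single naïve human ESC line derived from an early embryo, under 2 culture conditions with 2 biological replicates each. The 2-D cells adhered to Matrigel-coated plastic, and the 3-D cells were dissociated and kept for 21 days inside PEG-8-SH/PEG-8-Acr scaffolds, hydrogels that assemble from polyethylene glycol polymers with thiol and acrylate ends. Both conditions used the same ESC expansion medium, with the growth factor FGF2, the GSK3 inhibitor CHIR99021, a MEK inhibitor and the cytokine LIF, and no differentiation step is described for either. The line had been kept on mouse feeder cells and was moved to feeder-free Matrigel before encapsulation. All 4 libraries were made from total RNA depleted of ribosomal RNA.

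The germ layers form at gastrulation, when epiblast cells that pass through the primitive streak become mesoderm or endoderm and those that stay behind become ectoderm, part of which turns into neural ectoderm. Transcription factors such as TBXT, MIXL1 and EOMES mark the streak itself, whereas factors such as SOX17, FOXA2, MEOX1 or PAX6 and products such as transthyretin or doublecortin mark later, committed cells. Naïve ESCs resemble the epiblast before implantation, ahead of these decisions, so the comparison asks how much RNA of each layer's markers undifferentiated Elf1 cells held and whether it differed between 2-D and 3-D culture.

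Sequencing depth, as the sum of counts, was 33833778 and 30114220 for 2-D replicates 1 and 2 and 21154409 and 18276147 for the 3-D replicates, and mitochondrial genes took 5.10% to 5.30% of the counts in 2-D and 8.33% to 8.50% in 3-D. Levels are given as RPKM, reads per kilobase of annotated exon and per 10⁶ counts after TMM scaling, an adjustment of library size for composition. The ESC label was checked with 10 core pluripotency genes, which ranged from 37.8 to 444 RPKM and were led by LIN28A and TDGF1. Of 12 genes typical of the naïve state, 8 reached 1 RPKM in both conditions, and ZFP42 was the highest at 60.8 RPKM. The other 4 naïve genes, singled out after their values were seen, were KLF17, DPPA5, ARGFX and KHDC1L, and KLF17 averaged 0.222 RPKM in 2-D and 0.311 RPKM in 3-D.

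Most germ layer markers were below 1 RPKM, and the highest levels were those of primitive streak and mesoderm genes. In both conditions 6 of the 30 markers reached 1 RPKM, namely KDR, MIXL1, TBXT, EOMES, TWIST1 and GATA4, against 53.6% of all 19886 protein-coding genes. More than 3 counts in each library were found for 16 of the 30 markers, compared with 73.6% of protein-coding genes, and TTR and NEUROD1 had no count in any library. The mesoderm markers summed to 50.9 and 50.8 RPKM in 2-D and to 54.9 and 53.8 RPKM in 3-D. The endoderm markers summed to 5.90 to 6.31 RPKM and the neural ectoderm markers to 1.07 to 1.22 RPKM over the 4 libraries. The order of the layers was thus the same in every library, and most of the mesoderm sum came from KDR, MIXL1 and TBXT. In RNA of whole cultures, a few cells with much RNA of a marker and many cells with little cannot be told apart.

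**Figure D1:**
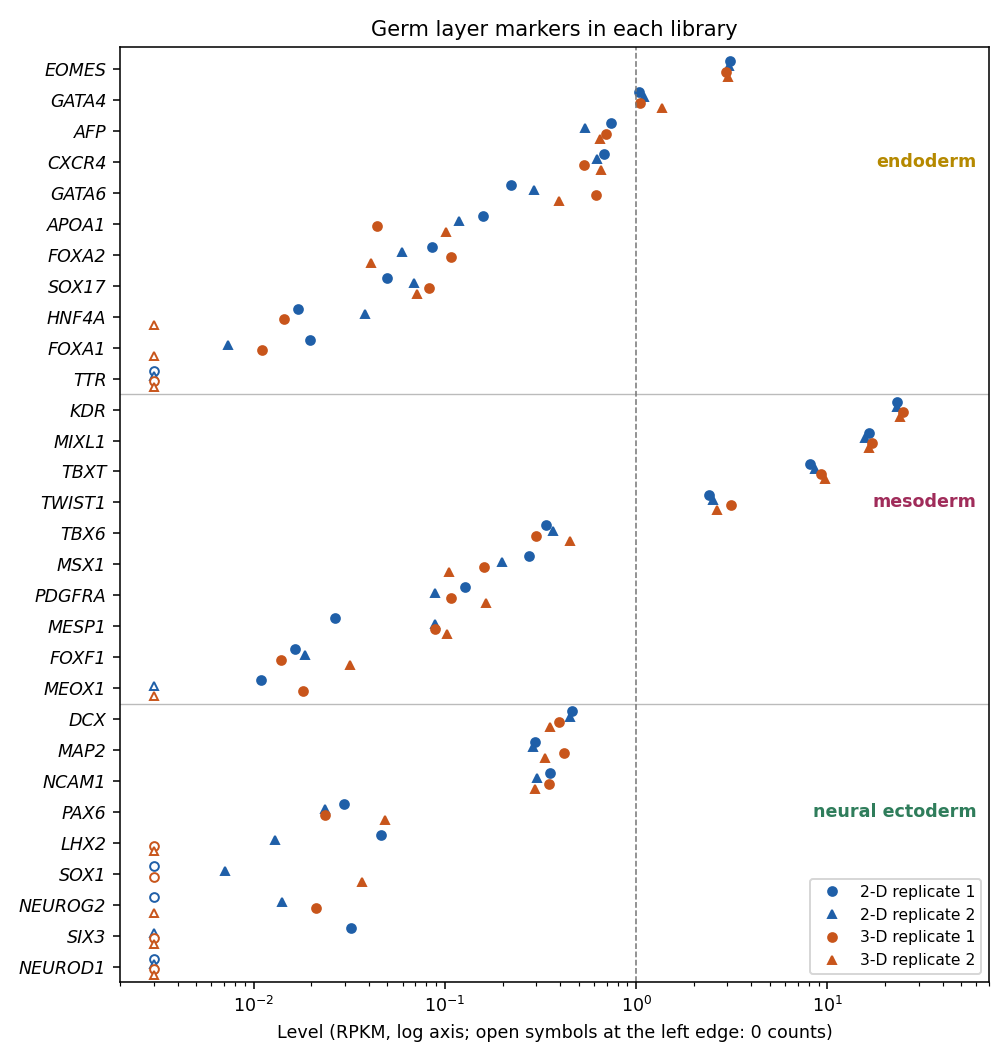
Level of each of the 30 germ layer markers in each library in RPKM on a log axis, grouped by germ layer, with circles and triangles for replicates 1 and 2, blue for 2-D, orange for 3-D and open symbols at the left edge for 0 counts. The dashed line is at 1 RPKM, which 6 markers passed in both conditions, and KDR was the highest at 23.1 to 24.7 RPKM.

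The promoters of the most and least abundant markers are shown because markers with a like density of CpG dinucleotides, the sites of DNA methylation, differed widely in level. Windows of 300 bases, from 250 before to 50 after a transcription start in RefSeq (GRCh38.p14), were found for 19 of the 30 markers, and the window with the most CpGs was used where a gene had several. KDR (chr4:55125546-55125845, minus strand), MIXL1 (chr1:226223414-226223713, plus strand), TBXT (chr6:166168606-166168905, minus strand) and EOMES (chr3:27722274-27722573, minus strand) had the highest levels of all 30 markers. SOX1 (chr13:112066899-112067198, plus strand) and NEUROD1 (chr2:181680468-181680767, minus strand) are CpG-rich markers with 0 to 3 counts per library. AFP (chr4:73435971-73436270, plus strand) and DCX (chrX:111411097-111411396, minus strand) had the fewest CpGs. The sequences are written from 5′ to 3′ with each CpG in capitals.
KDR: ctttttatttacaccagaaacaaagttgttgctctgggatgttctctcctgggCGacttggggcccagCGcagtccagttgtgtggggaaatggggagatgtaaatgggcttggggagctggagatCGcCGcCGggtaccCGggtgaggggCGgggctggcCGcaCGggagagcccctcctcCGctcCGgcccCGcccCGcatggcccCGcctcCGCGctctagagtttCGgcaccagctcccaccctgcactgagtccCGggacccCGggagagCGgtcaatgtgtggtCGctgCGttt
MIXL1: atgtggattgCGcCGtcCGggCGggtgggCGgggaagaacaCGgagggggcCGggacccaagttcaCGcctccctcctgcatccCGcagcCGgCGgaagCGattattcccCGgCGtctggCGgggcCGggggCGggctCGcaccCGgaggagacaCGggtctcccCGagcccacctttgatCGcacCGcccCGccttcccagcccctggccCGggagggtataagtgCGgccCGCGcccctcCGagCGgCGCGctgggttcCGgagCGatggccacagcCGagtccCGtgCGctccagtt
TBXT: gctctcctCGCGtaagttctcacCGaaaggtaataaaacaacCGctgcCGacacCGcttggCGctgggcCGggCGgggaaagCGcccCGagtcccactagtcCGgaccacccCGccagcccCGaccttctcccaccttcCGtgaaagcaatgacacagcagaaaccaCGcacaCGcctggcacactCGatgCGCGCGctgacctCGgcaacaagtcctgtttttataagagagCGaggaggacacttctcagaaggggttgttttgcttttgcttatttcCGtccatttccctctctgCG
EOMES: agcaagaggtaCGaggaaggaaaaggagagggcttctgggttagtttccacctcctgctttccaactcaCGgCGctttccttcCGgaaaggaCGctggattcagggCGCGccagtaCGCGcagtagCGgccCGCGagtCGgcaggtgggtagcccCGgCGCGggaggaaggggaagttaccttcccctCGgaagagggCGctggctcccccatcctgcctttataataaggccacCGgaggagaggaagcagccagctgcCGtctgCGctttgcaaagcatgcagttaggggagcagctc
SOX1: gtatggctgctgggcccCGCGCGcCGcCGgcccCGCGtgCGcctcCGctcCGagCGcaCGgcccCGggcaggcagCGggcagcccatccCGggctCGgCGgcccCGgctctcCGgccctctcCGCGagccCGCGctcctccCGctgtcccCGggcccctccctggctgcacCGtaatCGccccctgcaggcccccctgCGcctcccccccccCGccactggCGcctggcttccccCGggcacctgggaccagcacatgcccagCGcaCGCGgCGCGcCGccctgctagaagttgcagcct
NEUROD1: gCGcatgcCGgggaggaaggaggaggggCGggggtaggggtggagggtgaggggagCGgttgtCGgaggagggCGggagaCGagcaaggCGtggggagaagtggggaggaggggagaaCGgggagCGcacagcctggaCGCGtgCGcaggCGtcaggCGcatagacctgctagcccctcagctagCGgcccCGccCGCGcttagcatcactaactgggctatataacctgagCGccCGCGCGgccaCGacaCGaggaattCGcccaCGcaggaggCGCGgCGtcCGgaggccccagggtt
AFP: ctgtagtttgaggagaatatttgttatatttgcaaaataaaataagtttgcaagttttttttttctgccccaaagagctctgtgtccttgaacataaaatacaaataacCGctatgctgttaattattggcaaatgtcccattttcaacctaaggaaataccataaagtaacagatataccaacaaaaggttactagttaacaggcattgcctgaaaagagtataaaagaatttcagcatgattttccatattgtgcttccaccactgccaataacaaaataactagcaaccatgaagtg
DCX: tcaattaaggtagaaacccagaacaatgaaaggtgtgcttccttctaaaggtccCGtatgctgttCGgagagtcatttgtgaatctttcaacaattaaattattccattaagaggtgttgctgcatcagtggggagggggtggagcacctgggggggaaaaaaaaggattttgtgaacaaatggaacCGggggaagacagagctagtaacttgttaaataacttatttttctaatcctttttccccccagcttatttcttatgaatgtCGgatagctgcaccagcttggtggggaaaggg

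The 19 windows held a median of 27 CpGs, compared with 16 over the windows of 27305 genes, and 14 of the 19 were at or above that median. MIXL1 and SOX1 both had 37 CpGs, but MIXL1 averaged 16.5 RPKM and SOX1 0.011 RPKM. KDR, TBXT and EOMES had 22, 25 and 21 CpGs, whereas NEUROD1, with no count, had 31. AFP, with 1 CpG, and DCX, with 4, were nevertheless at 0.654 and 0.415 RPKM, above GATA6 (25 CpGs), TBX6 (35) and PAX6 (32) in mean level. For DCX this order did not hold in 3-D alone, where GATA6 averaged 0.506 RPKM, DCX 0.376 RPKM and TBX6 0.374 RPKM. The ranges of DCX and GATA6 over the libraries overlapped. The order of DCX and TBX6 also depends on the length used. Annotated exons and the longest transcript span 10203 and 9406 bases for DCX and 3103 and 2162 bases for TBX6. With the longest transcript as the length, TBX6 would lie above DCX in mean level. Thus, CpG-rich windows belonged to the most abundant as well as to undetected markers. Both strands of each window were also searched for 3 motifs, the TATA box TATAAA, the TCF/LEF motif CTTTGAT and the T-box half-site TCACACC, none of which contains another. TATAAA was found in 4 windows, those of TBXT, EOMES, AFP and CXCR4, and in 11.5% of all genes' windows. In the AFP window it began at base 222 on the printed strand, whereas in the TBXT and EOMES windows it lay on the opposite strand, from printed bases 222 and 220, counted from 1 at the 5′ end. CTTTGAT was found in the MIXL1 window alone of the 19, on the printed strand from base 175, and in 2.54% of all genes' windows, and TCACACC was in none of the 19 and in 3.25% of all.

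**Figure D2:**
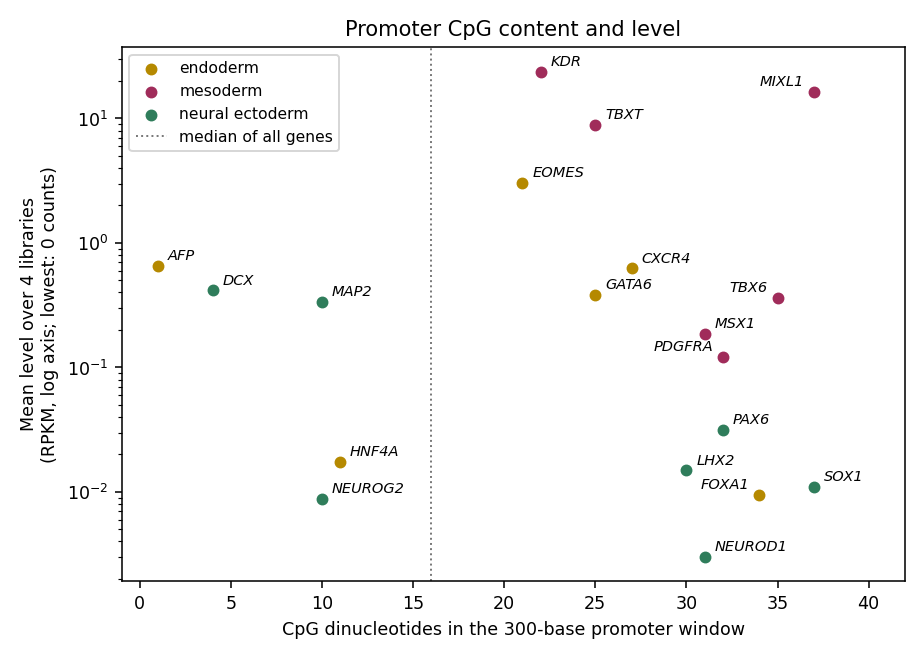
Number of CpG dinucleotides in the 300-base promoter window of 19 markers (horizontal axis) against their mean level over the 4 libraries in RPKM (vertical log axis, with NEUROD1 drawn at the lower edge for 0 counts), coloured by germ layer. The dotted line is the median of all genes, 16 CpGs, and markers right of it ranged from no count (NEUROD1) to 23.8 RPKM (KDR).

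Among the primitive streak factors, TBXT (brachyury, ENSG00000164458.9, chr6:166157656-166168700, minus strand), the T-box factor that defines the streak and nascent mesoderm, was at 8.09 and 8.61 RPKM in the 2-D replicates and at 9.25 and 9.75 RPKM in the 3-D replicates. Both 3-D libraries were above both 2-D libraries, and TBXT stood at percentile 79.2 among protein-coding genes. An antisense lncRNA, LNCDAT, covers 14.3% of its exon bases in the annotation used here and has no value of its own. MIXL1 (ENSG00000185155.11, chr1:226223618-226227060, plus strand), a homeobox factor of the streak needed for mesoderm and endoderm formation, was at 16.5 and 15.7 RPKM in 2-D and at 17.1 and 16.5 RPKM in 3-D. Its conditions overlapped, and it was at percentile 88.5. EOMES (ENSG00000163508.13, chr3:27715949-27722711, minus strand), the T-box factor that acts in the streak ahead of definitive endoderm, was at 3.10 and 3.05 RPKM in 2-D and at 2.94 and 3.04 RPKM in 3-D. Its 4 values spanned less than those of TBXT relative to their size, with the 2-D libraries slightly higher.

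KDR (ENSG00000128052.10, chr4:55078481-55125595, minus strand), the VEGF receptor used to mark lateral and haemangiogenic mesoderm, was the most abundant marker of all 30, at 23.1 and 23.2 RPKM in 2-D and at 24.7 and 24.1 RPKM in 3-D. This placed it at percentile 92.6 among protein-coding genes, with both 3-D libraries higher after TMM scaling. TWIST1 (ENSG00000122691.13, chr7:19020991-19117636, minus strand), a basic helix-loop-helix factor of mesenchyme and epithelial-mesenchymal transition, was at 2.41 and 2.52 RPKM in 2-D and at 3.12 and 2.65 RPKM in 3-D. The 3-D replicates of TWIST1 lay farther apart from each other than replicate 2 lay from the 2-D libraries. In the order of mean levels KDR, MIXL1, TBXT and EOMES were apart from one another in their ranges over the 4 libraries, whereas EOMES and TWIST1 overlapped.

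The mesoderm markers of later stages were much lower. TBX6, a T-box factor of presomitic mesoderm, was at 0.337 and 0.366 RPKM in 2-D and at 0.298 and 0.449 RPKM in 3-D. PDGFRA, the PDGF receptor of paraxial mesoderm and mesenchyme, was at 0.128 and 0.0884 RPKM in 2-D and at 0.107 and 0.164 RPKM in 3-D. In both genes the 3-D libraries lay on either side of, or overlapped, the 2-D libraries. PDGFRA shares 16.1% of its exon bases with ENSG00000282278, a protein-coding gene on the same strand with 0 counts in every library. How fragments in the shared bases were counted was not tested, so the level of PDGFRA is uncertain. MSX1, a homeobox factor of lateral and limb mesenchyme, was at 0.274 and 0.199 RPKM in 2-D and at 0.161 and 0.105 RPKM in 3-D, from 20, 13, 7 and 4 counts, with both 3-D libraries lower. MESP1, the factor of cardiac mesoderm, had 1, 3, 2 and 2 counts over the 2-D and then the 3-D replicates. FOXF1, a forkhead factor of visceral mesoderm, had 1 or 2 counts in every library, and MEOX1, a somite homeobox factor, had 1 count in replicate 1 of each condition and none in the others. For these 3 genes a difference between conditions was not detectable at this depth.

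Of the endoderm markers other than EOMES, GATA4 reached 1 RPKM. GATA4, a zinc finger factor of primitive and definitive endoderm and of heart, was at 1.03 and 1.10 RPKM in 2-D and at 1.05 and 1.37 RPKM in 3-D, with 96 to 158 counts per library. The conditions overlapped, and 3-D replicate 2 was apart from the other 3 libraries. GATA6 (ENSG00000141448.10, chr18:22169589-22202528, plus strand), its relative with a leading role in primitive endoderm, was at 0.222 and 0.290 RPKM in 2-D and at 0.615 and 0.396 RPKM in 3-D, from 29, 34, 48 and 27 counts. Both 3-D libraries were higher, but the replicates within 3-D also differed more than those within 2-D. CXCR4, the chemokine receptor used to sort definitive endoderm, was at 0.680 and 0.626 RPKM in 2-D and at 0.537 and 0.654 RPKM in 3-D. AFP, the α-fetoprotein of yolk sac and fetal liver, was at 0.735 and 0.537 RPKM in 2-D and at 0.699 and 0.645 RPKM in 3-D. In CXCR4 and AFP the conditions overlapped, and these genes also overlapped each other in level.

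The committed endoderm factors were near the floor. SOX17, the defining factor of definitive and primitive endoderm, had 4, 5, 4 and 3 counts over 2-D replicates 1 and 2 and 3-D replicates 1 and 2. FOXA2, the forkhead factor of axial mesendoderm and gut, had 8, 5, 6 and 2 counts, and its relative FOXA1 had 3, 1, 1 and 0. The highest level of these 3 genes in any library was 0.107 RPKM, for FOXA2 in 3-D replicate 1. Of the hepatic markers, HNF4A, a nuclear receptor of liver and gut, had 6, 12, 3 and 0 counts, and APOA1, the main HDL apolipoprotein, had 6, 4, 1 and 2. APOA1 shares 11.2% of its exon bases with APOA1-AS on the other strand, which had more counts in every library, 32, 24, 10 and 15. TTR, which encodes the thyroid hormone carrier transthyretin, had 0 counts in all 4 libraries, which allows up to 0.0871 and 0.0974 CPM (counts per 10⁶ scaled counts) in the 2-D libraries and 0.146 and 0.167 CPM in the 3-D libraries at 3 counts per library.

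No neural ectoderm marker reached 1 RPKM, and the highest were cytoskeletal and adhesion genes of neurons. DCX, a microtubule-binding protein of migrating neurons, was at 0.461 and 0.448 RPKM in 2-D and at 0.396 and 0.355 RPKM in 3-D. MAP2, a dendritic microtubule-associated protein, was at 0.294 and 0.288 RPKM in 2-D and at 0.419 and 0.334 RPKM in 3-D. Both 3-D libraries were below the 2-D libraries for DCX and above them for MAP2. NCAM1, the neural cell adhesion molecule, was at 0.355 and 0.302 RPKM in 2-D and at 0.349 and 0.294 RPKM in 3-D, with overlap. PAX6, the paired-box factor that defines early human neuroectoderm, was at 0.0295 and 0.0236 RPKM in 2-D and at 0.0236 and 0.0486 RPKM in 3-D. Its 25.4% of exon bases shared with ELP4, an Elongator subunit gene on the other strand that had 749, 666, 391 and 373 counts, makes even these values uncertain, since the strand setting of the counting is not given in the sources used here. The other transcription factors had at most 4 counts in any library. SOX1, a neural SOXB1 factor, had 0, 1, 0 and 3 counts, SIX3, of the anterior forebrain, had 3, 0, 0 and 0, and LHX2, of forebrain and eye field, had 4, 1, 0 and 0. The proneural factor NEUROG2 had 0, 1, 1 and 0 counts, and NEUROD1, which acts after it in differentiating neurons, had none.

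The 14 markers that did not pass the filter on low counts, made up of 6 endoderm, 3 mesoderm and 5 neural ectoderm genes, together had 38 and 35 counts in 2-D and 20 and 14 counts in 3-D. Scaled by depth, these sums were 1.10 and 1.14 CPM in 2-D and 0.973 and 0.781 CPM in 3-D. The exact 95% Poisson intervals, which cover counting error only, were 0.781 to 1.51 and 0.791 to 1.58 CPM in 2-D and 0.594 to 1.503 and 0.427 to 1.31 CPM in 3-D. All 4 intervals overlapped. Each covers a single library, so their overlap is no test of the conditions, and a difference in this sum was not tested.

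To ask whether the markers differed between conditions, 3-D was compared with 2-D with edgeR's quasi-likelihood test over 22555 genes, of which 16 were germ layer markers, 5 of endoderm, 7 of mesoderm and 4 of neural ectoderm. None of the 16 had an adjusted p below 0.05 (edgeR quasi-likelihood test, Benjamini-Hochberg), compared with 7.9% of all tested genes, of which 4.54% were higher in 3-D and 3.36% in 2-D. Without adjustment, p in this test was below 0.05 for 4 of the 16 (GATA6, TBXT, KDR and MAP2) and for 21.3% of all tested genes. DESeq2 also called none of the 16, against 8.42% of all genes to which it gave an adjusted p, but gave an adjusted p for 3 of them, since the other 13 were below its own filter on the mean count. Its unadjusted p was below 0.05 for 1 of the 16, GATA6, and was 0.125 for TBXT, 0.147 for KDR and 0.193 for MAP2. The share of all genes with an unadjusted p below 0.05 is given for the quasi-likelihood test alone, so this DESeq2 count has no share to be read against. The unadjusted p of edgeR's likelihood ratio test was 0.0646 for TBXT and 0.125 for KDR, but 0.0424 for MAP2 and 0.00107 for GATA6. The log2 fold change was above 0 in 11 markers and below 0 in 5, against 11272 of 22555 tested genes above 0. With library size alone as the scale, 10 of the 11 stayed above 0, the exception being MIXL1. Of these, AFP, TBX6 and KDR were then near 0, at 0.010, 0.011 and 0.012, with the median of all genes at -0.065. The libraries of the conditions did not overlap in 8 of the 16, with 3-D higher in 5, compared with 50.5% and 25.4% of all tested genes. The shares of non-overlapping markers and, in the quasi-likelihood test, of nominally significant markers were thus close to those of all genes.

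The median log2 fold change was 0.076 over the 16 markers, and it was 0.074 for endoderm, 0.077 for mesoderm and 0.18 for neural ectoderm, against -0.00014 over all tested genes. These medians rest on few genes: with library size as the scale, which moved the median of all genes to -0.065, those of endoderm and mesoderm were 0.010 and 0.012. Without single libraries the endoderm median ranged from -0.052 to 0.14 and the neural ectoderm median from -0.045 to 0.24. The plot of fold changes shows that the intervals of KDR, MIXL1, TBXT and EOMES were the narrowest.

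**Figure D3:**
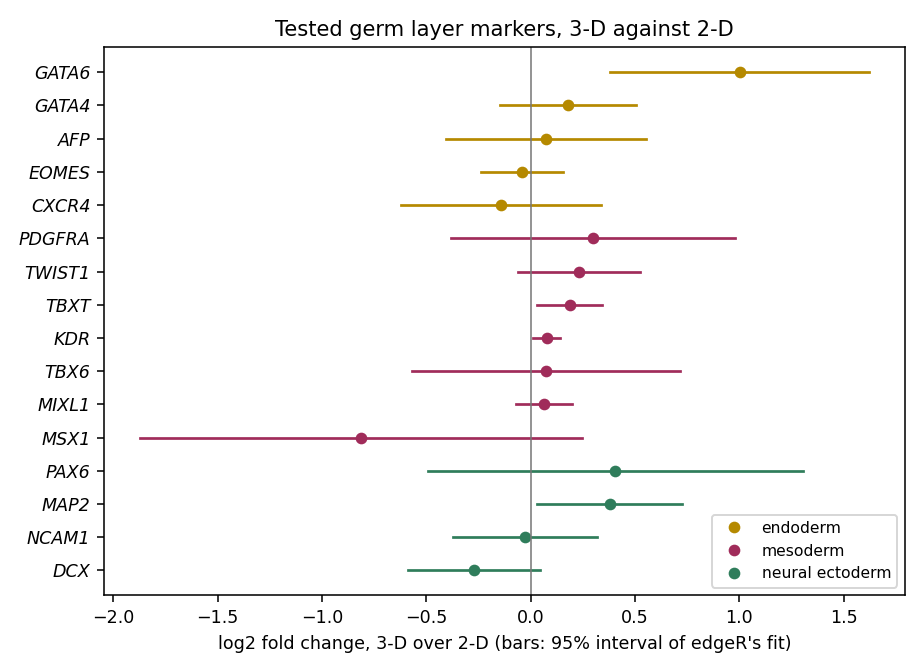
Fitted log2 fold change of 3-D over 2-D for the 16 tested markers (points) with 95% intervals of the edgeR quasi-likelihood fit (bars), grouped and coloured by germ layer and ordered by size within a layer. GATA6 had the largest positive value, 1.0, and MSX1 the lowest, -0.81, and the intervals of GATA6, TBXT, KDR and MAP2 do not cross 0 before adjustment for multiple tests.

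The abundant mesoderm and streak markers were measured precisely, and their differences were small. For KDR the log2 fold change was 0.077 ± 0.030 (SE, 2 replicates per condition) with a 95% interval of 0.011 to 0.14 and an adjusted p of 0.157 (edgeR quasi-likelihood test). For TBXT it was 0.19 ± 0.071, with an interval of 0.031 to 0.34 and an adjusted p of 0.147 in the same edgeR test. The SEs of KDR and TBXT were larger in edgeR's likelihood ratio test, 0.050 and 0.10, and in DESeq2, 0.052 and 0.12. After TMM scaling both genes were higher in each 3-D library than in each 2-D library, but neither difference passed the adjusted test, and with library size as the scale the changes were 0.012 for KDR and 0.12 for TBXT. MIXL1 had 0.063 ± 0.062 (interval -0.071 to 0.20, edgeR adjusted p = 0.630), which was -0.0010 with library size as the scale, and EOMES had -0.042 ± 0.091 (interval -0.24 to 0.16, edgeR adjusted p = 0.851). TWIST1 had 0.23 ± 0.13 (interval -0.061 to 0.52, edgeR adjusted p = 0.365). The intervals of KDR, TBXT, MIXL1 and EOMES all lay between -0.24 and 0.34 on the log2 scale.

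GATA6 had the largest change among the 16 and the adjusted p nearest to the threshold. Its log2 fold change was 1.0 ± 0.28 (interval 0.38 to 1.62), 2.00-fold, with an unadjusted p of 0.00413 and an adjusted p of 0.0516 in the edgeR quasi-likelihood test. The adjusted p was below 0.05 with edgeR's likelihood ratio test (0.0274), without the filter on low counts (0.00329), with at least 10 counts in every library (0.0421) and with the replicate number as a block (0.0319). These settings called GATA6 as the single marker, and of all genes they called 5.05%, 5.89%, 8.95% and 9.61% respectively. It was 0.0525 with DESeq2 size factors and 0.0538 with library size as the scale, both in the edgeR quasi-likelihood test. Leaving out a single library of edgeR's fit moved the fold change on the log2 scale between 0.64 (adjusted p = 0.324, without 3-D replicate 1) and 1.27 (adjusted p = 0.00348, without 3-D replicate 2, where 9.74% of all genes, KDR and MAP2 among them, were called). In edgeR's fits to all libraries the adjusted p of GATA6 thus fell on both sides of the threshold, from 0.00329 to 0.0538, on 27 to 48 counts per library. DESeq2 gave it a log2 fold change of 0.99 ± 0.49 with an unadjusted p of 0.0422 and no adjusted p. The unnamed lncRNA ENSG00000266283 on the other strand covers 8.45% of the exon bases of GATA6 and had 5, 6, 13 and 8 counts, with a log2 fold change of 1.66 ± 0.52 (edgeR adjusted p = 0.0739). GATA6-AS1, also antisense, had 10, 5, 2 and 7 counts. The part of these antisense counts in the GATA6 value was not tested.

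GATA4 had a log2 fold change of 0.18 ± 0.15 (interval -0.15 to 0.51, edgeR adjusted p = 0.566). The difference was -0.015 without 3-D replicate 2, the library with its highest level. AFP had 0.074 ± 0.22 and CXCR4 -0.14 ± 0.22, and their edgeR adjusted p-values were 0.895 and 0.781. The intervals, -0.41 to 0.55 for AFP and -0.62 to 0.34 for CXCR4, were several times wider than those of the streak factors.

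In mesoderm beyond the streak, MSX1 had a log2 fold change of -0.81 ± 0.49 on 4 to 20 counts per library, and its interval of -1.87 to 0.25 included 0 (edgeR adjusted p = 0.382). PDGFRA had 0.30 ± 0.31 and TBX6 0.075 ± 0.30, with edgeR adjusted p-values of 0.662 and 0.924. Both were below 0 without 3-D replicate 2, at -0.023 and -0.23. Among neural markers MAP2 had 0.38 ± 0.16 (interval 0.032 to 0.72, edgeR adjusted p = 0.189) and DCX -0.27 ± 0.15 (interval -0.59 to 0.044, edgeR adjusted p = 0.316), so these neuronal cytoskeleton genes had opposite signs. NCAM1 had -0.027 ± 0.16 and PAX6 0.40 ± 0.41, with edgeR adjusted p-values of 0.951 and 0.651. The tested neural markers thus did not move in 1 direction.

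Other genes of the same lineages were taken from lists that complement the 30 markers. Of 17 further endoderm genes 2 reached 1 RPKM in both conditions, CER1, a secreted Nodal and BMP antagonist of anterior endoderm, at 11.0 RPKM and FOXA3, a forkhead factor of gut and liver, at 4.60 RPKM. None of the 9 tested was called by edgeR, against 7.9% of all tested genes, and none had an unadjusted p below 0.05, against 21.3%. Of 22 further streak and mesoderm genes 7 reached 1 RPKM, led by the N-cadherin gene CDH2 at 16.9 RPKM and cardiac actin ACTC1 at 15.8 RPKM. Among the 11 tested, 2 were called, both higher in 3-D, against 7.9% of all tested genes. CDH2 was at 16.1 and 16.3 RPKM in 2-D and at 17.3 and 17.7 RPKM in 3-D (log2 fold change 0.12 ± 0.030, edgeR adjusted p = 0.0340). BMP4, a signal that patterns mesoderm, was at 9.06 and 8.70 RPKM in 2-D and at 10.5 RPKM in both 3-D libraries (log2 fold change 0.24 ± 0.062, edgeR adjusted p = 0.0348). The change of TBXT, which was not called, lay between those of CDH2 and BMP4.

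Of 23 further neural ectoderm genes 6 reached 1 RPKM, led by NES, the intermediate filament nestin, at 106 RPKM and SOX11 at 16.9 RPKM. None of the 11 tested was called by edgeR, against 7.9% of all tested genes, and 2 had an unadjusted p below 0.05, against 21.3%. Of 13 surface ectoderm and neural crest genes 5 reached 1 RPKM, led by TFAP2C at 31.6 RPKM and ERBB3 at 6.05 RPKM. The median of that list was 0.0894 RPKM. Of 9 primitive endoderm genes 5 reached 1 RPKM, led by APOE at 66.9 RPKM and COL4A1 at 18.5 RPKM, with a list median of 1.33 RPKM. Of the 7 tested genes on each of these lists edgeR called none, with an unadjusted p below 0.05 for 1 and 3 of them, read against the same 7.9% and 21.3%. The 7 tested primitive endoderm genes, the lineage that GATA6 also marks, had a median log2 fold change of 0.099. As the plot of list levels shows, every germ layer list had a median below 1 RPKM. The highest gene of a list ranged from 0.415 RPKM among the neural ectoderm markers to 106 RPKM among the further neural genes. The 23 further neural genes summed to 144 to 148 RPKM, most of it NES, and the 22 further streak and mesoderm genes to 49.4 to 55.5 RPKM, so the order of the layers differed from that among the 30 markers.

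**Figure D4:**
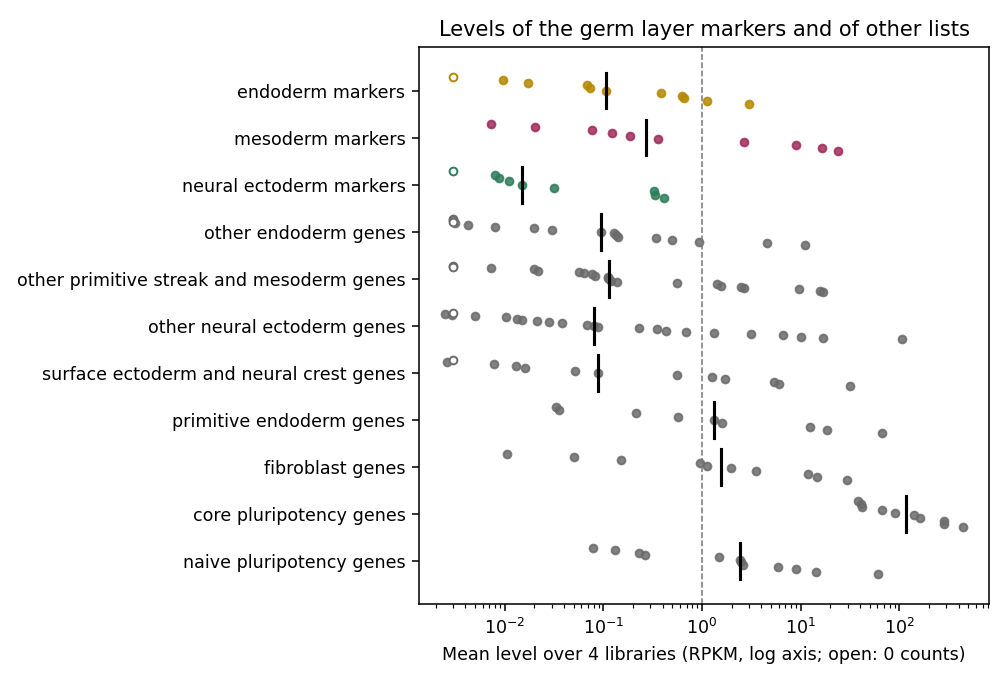
Mean level of each gene over the 4 libraries in RPKM on a log axis, for the 30 markers by germ layer (coloured) and for 8 other lists (grey), with black bars for list medians, open symbols for genes with 0 counts and a dashed line at 1 RPKM. The medians were 0.106, 0.274 and 0.0149 RPKM for the endoderm, mesoderm and neural ectoderm markers and 116 RPKM for the core pluripotency genes.

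Of 10 fibroblast genes, 8 were tested and 4 were called, all higher in 3-D, against 4.54% of all tested genes: COL1A1 with a log2 fold change of 0.29 ± 0.039, COL3A1 with 0.73 ± 0.096, POSTN with 0.65 ± 0.15 and THY1 with 0.22 ± 0.039. Their edgeR adjusted p-values were 0.000779, 0.000704, 0.0181 and 0.00453. COL1A2, the most abundant of the list at 29.3 RPKM, had -0.037 ± 0.037 (edgeR adjusted p = 0.649). The 10 genes summed to 60.8 and 60.2 RPKM in 2-D and to 63.5 and 69.8 RPKM in 3-D, whereas the fibroblast proteoglycan genes DCN and LUM, named after their values were seen, had 2 to 6 and 3 to 17 counts per library. Of the 10 core pluripotency genes, L1TD1 (0.21 ± 0.031) and DNMT3B (0.17 ± 0.030) were called higher in 3-D by edgeR, against 4.54% of all tested genes, with adjusted p-values of 0.00111 and 0.00429. Of the 12 naïve genes, 10 were tested and KLF5 alone was called, higher in 3-D, against 4.54% of all tested genes. Its log2 fold change was 0.26 ± 0.044 (edgeR adjusted p = 0.00336). Among 3 reference genes, ACTB was called higher in 3-D, against the same 4.54%, with 0.27 ± 0.029 (edgeR adjusted p = 0.000202). GAPDH had 0.082 ± 0.035 (edgeR adjusted p = 0.200). The part of fibroblast genes, of the mitochondrial share or of read depth in the values of the germ layer markers was not tested.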

How the data were processed

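RNA was measured in 4 libraries, 2-D and 3-D with 2 replicates each, grouped by their labels. Per the labels and methods, the authors trimmed reads with Trim Galore 0.6.3, mapped them to hg38 with HISAT2 2.1.0 and counted fragments on GENCODE release 30 genes with featureCounts 1.6.4. The deposited files hold these raw counts for each library, as whole numbers. The strand setting and the handling of multi-mapping reads are not given in the sources used here. A deposited table of the authors' normalized values (DESeq2 2.11.40.6), with their fold changes, standard errors, Wald statistics and p-values, was not used. Of 60564 identifiers, 60295 were matched to GENCODE release 44 for names, positions and exon lengths, and the 269 others held 0.122% of the counts.

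Counts were fitted with edgeR 4.0.16 in R 4.3.3 (TMM, filterByExpr, quasi-likelihood test on condition, Benjamini-Hochberg adjustment over 22555 genes, called below an adjusted p of 0.05). The SE is the log2 fold change over the square root of F. Replicates of a condition differed by more than sampling noise (chi-square over degrees of freedom 2.27 in 2-D and 3.92 in 3-D), and the biological coefficient of variation was 5.10%. CPM and RPKM were computed from the counts with TMM-scaled library sizes. The procedure was tested on simulated counts, with changes of 1 and 2 on the log2 scale, in either direction, in genes with higher counts. It called 97% and 100% of these and 0.078% of unchanged genes. Smaller changes and changes in genes with few counts were not simulated, so power for many of the markers is not known. Depth limits the counting precision to a floor of 3 counts per library.

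The 30 markers and all lists were chosen with earlier results of these data known. All 30 were to be described, and of each other list the called genes and the 2 with the highest mean RPKM. The lists were other endoderm, other primitive streak and mesoderm, other neural ectoderm, surface ectoderm and neural crest, primitive endoderm, fibroblast, core pluripotency, naïve pluripotency and reference genes. Alternatives were DESeq2 1.42.0, edgeR's likelihood ratio test, DESeq2 size factors in edgeR, library size alone, no filter on low counts, a minimum of 10 counts per library, a replicate block, and each library left out in turn. For the levels, they were a threshold of 0.5 RPKM, the length of the longest transcript and at least 10 counts. The crossed replicate block was added after seeing the data. Tables used pandas 2.3.3, numpy 2.4.6 and scipy 1.17.1 in Python 3.11.15, and figures matplotlib 3.10.9.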

Additional observations from a re-analysis of the deposited data

How the results depend on the processing

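Of 111 fold changes of single markers under the 7 alternatives that keep all libraries and were not added later, 106 kept their direction and side of the threshold. The 106 included 13 DESeq2 values with no adjusted p, GATA6 among them. These counted as not called, so only their direction was compared. The exceptions to the 106 were GATA6, called under 4 of the 7 alternatives, and MIXL1, at -0.0010 with library size alone. The number of markers called by edgeR, 0 in the report, was therefore 1 with the likelihood ratio test, 1 without the filter on low counts, 1 with at least 10 counts in every library and 1 with the replicate block, GATA6 each time, and 0 to 3 without single libraries. The 3 were GATA6, KDR and MAP2, without 3-D replicate 2. Genes called in all were 1782, but 794 with DESeq2, 1139 with the likelihood ratio test and 974 to 2643 without single libraries. With library size alone, 514 genes were called higher in 3-D and 1879 higher in 2-D, against 1024 and 758. The cause of these changes was not tested. The median log2 fold change was 0.010 for endoderm and 0.012 for mesoderm with library size alone, and 0.12 for mesoderm with at least 10 counts in every library, where MSX1 drops out. Without single libraries it ranged from -0.052 to 0.14 for endoderm, 0.079 to 0.12 for mesoderm and -0.045 to 0.24 for neural ectoderm. In the same fits the log2 fold changes of GATA4 (-0.015 to 0.37), TBX6 (-0.23 to 0.36), PDGFRA (-0.023 to 0.60), PAX6 (-0.18 to 0.86) and NCAM1 (-0.16 to 0.096) changed sign without 3-D replicate 2, NCAM1 also without 2-D replicate 1, and AFP (-0.13 to 0.32) without 2-D replicate 2. Where 1 library stands alone, it is assumed to vary like the other condition. Replicates share no more than a number: deviations of same-numbered libraries correlated at -0.0079 over tested genes and at -0.10 over those with a mean of 100 or more counts. The replicate block called 2167 genes. The crossed pairing, added after seeing the data, called 2212 genes and 1 marker. The 6 markers at 1 RPKM stayed 6 with longest-transcript lengths, with library size alone and without single libraries, and were 8 at 0.5 RPKM. The 16 markers with more than 3 counts were 15 at a minimum of 10 and 16 to 18 without single libraries. Depth limits the 14 untested markers, of which no fold change is given.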
